A study of Mus musculus with 7 samples.

Results

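Day 21 8F-mini-oocytes were compared with day 21 4F-mini-oocytes to ask which named protein-coding genes differ when 4 further factors are induced. Mini-oocytes are oocyte-like cells made from mouse embryonic stem cells (mESCs) by forced expression of transcription factors in the absence of ovarian somatic cells. The genes were chosen by name and level, with predicted genes, microRNAs, Riken clones, small nucleolar RNAs and pseudogene symbols left out and a level of 5 or more TPM (transcript abundance scaled for gene length and library total) required in at least 2 of the 5 libraries. This left 10181 genes of any type, of which the 9985 not annotated as another type than protein-coding were kept, out of 55364 in the expression table. Among them were 15 to which the annotation gave no gene type. All 9985 were tested. At least 1 library of each group reached 5 TPM for 9588 of them, whereas 242 passed only through 4F libraries and 155 only through 8F libraries. The 155 had to be higher in both 8F libraries than in any 4F library. For the 242 the rule favoured a lower level in 8F without fixing it. Ugdh, with a second highest value of 5.01 TPM, lay just inside the rule, and P3h4, with 4.998 TPM, lay just outside it.

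Both groups came from the female mESC line BVSC H18, of hybrid 129/C57BL6 background. 4F cells carried Nobox, Figla, Tbpl2 and Lhx8, and 8F cells carried these together with Stat3, Dynll1, Sub1 and Sohlh1, each fused to a destabilisation domain that the ligand Shield1 stabilises. The study's text also describes 8F cells as carrying an Npm2-mCherry reporter cassette, which it does not say of 4F cells. Both were cultured with 150 ng/mL stem cell factor, 10 µM Y-27632 and 0.5 µM Shield1, and Shield1 was left out from day 12. Each day 21 library was made from a pool of 10 cells, with 3 libraries for 4F and 2 for 8F. In addition, 2 libraries of 4F cells at day 7, each from a pool of 1000 cells, entered the fit only to help estimate the spread. The labels do not say whether libraries of a group came from separate cultures, so the p-values measure the spread between these libraries, which may be technical. TPM adds reads from a transgene to those from the native gene. A lower TPM in a pool can mean fewer cells with the transcript or less of it per cell, which cannot be told apart.

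In the mouse ovary, SOHLH1 is a basic helix-loop-helix (bHLH) factor of primordial follicles that acts with SOHLH2 upstream of Lhx8, Figla and Nobox, and such factors bind E-box DNA as dimers, which ID proteins block. STAT3 carries cytokine signals from JAK kinases to the nucleus, DYNLL1 is a light chain of the dynein motor that also serves as a hub for many partners, and SUB1 is a coactivator of RNA polymerase II. Growing oocytes store large amounts of maternal transcripts and proteins and secrete the zona pellucida.

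The estimated reads on genes ranged from 13821113 to 15710096 in the 4F libraries and from 16950674 to 17173760 in the 8F libraries. More genes were above 0 in 8F (26563 and 26750) than in 4F (21293 to 22316). The 8F libraries lay closer to each other than the 4F libraries did. Among genes averaging 5 TPM or more, the pair of 8F libraries had a median absolute log2 difference of 0.15. This was 0.29 to 0.31 between pairs of day 21 4F libraries and 0.39 between the 2 day 7 libraries, which shared in the estimate of the spread. The 8F pair still differed by more than counting noise, with a chi-square of 9.09 per degree of freedom, and was kept as 2 samples. The deposited TPM values were printed with up to 9 decimals in all 4F libraries and up to 17 in both 8F libraries, so the groups' columns were written in different ways. Any difference in sequencing or computation that went with this cannot be told apart from the difference in factors.

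Of the 9985 genes, 315 were higher and 621 lower in 8F-mini-oocytes at a Benjamini-Hochberg adjusted p under 0.05 in limma, which is 9.37% in all. Over all 21780 genes tested, 8.37% were called, 3.95% higher and 4.41% lower. Over the 13953 protein-coding genes tested, 7.47% were called, 2.9% higher and 4.57% lower. Among the 9985, 3.15% were called higher and 6.22% lower. This excess of lower genes depended on the method. A fit of the day 21 libraries alone called 385 higher and 715 lower. Limma voom on recovered reads called 968 higher and 599 lower, and the fit without the eBayes trend 132 and 122. Both 8F values lay above all 4F values for 24.1% of all genes tested and below them for 19.8%. Genes called over 2-fold numbered 199 higher and 148 lower. Among the 8465 genes at 5 TPM or more in all 5 libraries, 266 were higher and 604 lower. The median log2 fold change on the log2(TPM + 1) scale, used for every fold change given here, was -0.00 for the 9985 genes and 0.06 for all genes tested. The number of calls fell whichever day 21 library was left out. Leaving out an 8F library leaves 1 in that group. Fewer libraries widen the error of a fit, so a lost call does not by itself mark a particular library. A fit of the 5 day 21 libraries alone called 1100. The count was 413, 421 and 475 without 4F replicate 1, 2 and 3, and 48 and 72 without 8F replicate 1 and 2.

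**Figure D1:**
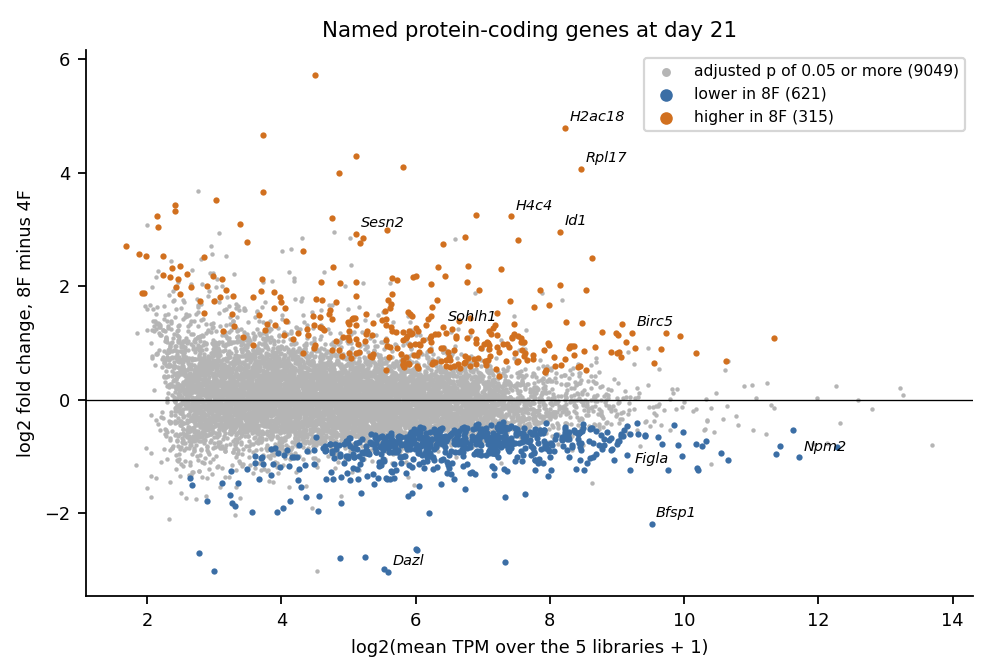
Log2 fold change (8F minus 4F, vertical axis) of the 9985 named protein-coding genes at day 21 against log2(mean TPM over the 5 libraries + 1). Orange points are the 315 genes called higher in 8F, blue points the 621 called lower and grey points the rest; the tallest orange points include H2ac18 and Rpl17, and Dazl is among the lowest blue points.

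The difference between groups also moved with the make-up of the transcripts. The median log2 fold change fell from 1.17 in genes of up to 500 summed exon bases to -0.16 in genes over 8000. The median fell from 0.20 in the quintile of genes with the lowest purine (A + G) share of the longest transcript to -0.27 in the quintile with the highest, where 16.3% of genes were lower, against 2.16% in the lowest quintile. A fit made after these values were seen, in which splines of exon length, GC and purine content were removed from each library, called 211 genes higher and 320 lower of 9968, and 449 of these 531 were among the 936. Genes described below whose call it ended are named as such. The part of transcript make-up in the other differences was not tested.

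**Figure D2:**
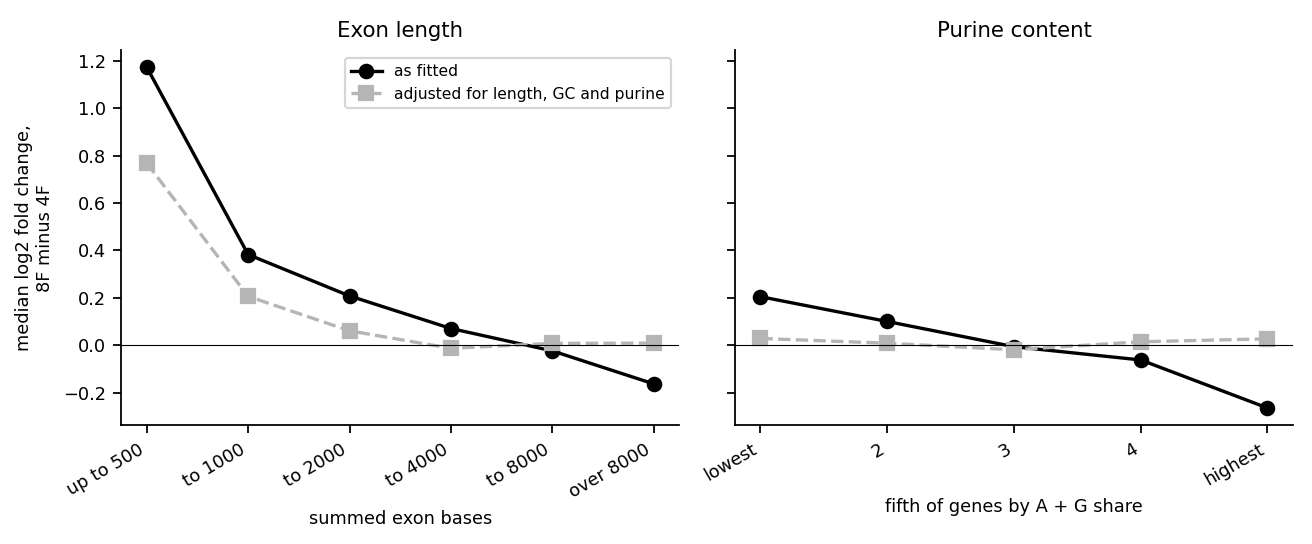
Median log2 fold change (8F minus 4F) of the named genes by summed exon bases (left) and by quintile of purine share (right), as fitted (black circles) and after removal of length, GC and purine splines (grey squares). As fitted, the medians run from 1.17 down to -0.16 with length and from 0.20 down to -0.27 with purine share.

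The 5 marker genes of the comparison were all called, with Sohlh1, Bmp15 and Zfp36l2 higher and Figla and Dazl lower in 8F. They were picked from earlier results of these libraries and are no independent evidence of direction. Of the 4 added factors, only Sohlh1 was called. The gene spans chr2:25842995-25847248 (minus strand, mm10). Sohlh1 stood at 60.9, 42.7 and 56.2 TPM in 4F and at 117 and 144 TPM in 8F, with no overlap. This is a log2 fold change of 1.28 ± 0.21 (SE; limma, Benjamini-Hochberg adjusted p = 0.0201). Sohlh1 was listed at 0 in both day 7 4F libraries, and 4F cells carry no Sohlh1 transgene.

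The other 3 added factors were already abundant in 4F-mini-oocytes. Stat3 was at 180, 181 and 183 TPM in 4F and at 176 and 196 TPM in 8F, and the groups overlapped. Its log2 difference was 0.03, with a 95% interval from -0.19 to 0.26. Sub1 was at 617, 528 and 512 TPM in 4F and at 616 and 526 TPM in 8F, also overlapping, with a difference of 0.05 (interval from -0.26 to 0.35). Dynll1 was at 237, 228 and 185 TPM in 4F and at 323 and 317 TPM in 8F. Both 8F values lay above all 4F values, and the log2 difference of 0.57 (interval from 0.12 to 1.013) missed the threshold in limma with Benjamini-Hochberg adjustment (adjusted p = 0.13).

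Of the 4 factors that both groups carried, Figla and Lhx8 were called, both lower in 8F-mini-oocytes. Figla, a bHLH factor that drives zona genes, was at 741, 726 and 816 TPM in 4F and at 320 and 326 TPM in 8F, a log2 fold change of -1.23 ± 0.11 (limma, Benjamini-Hochberg adjusted p = 0.0044). Lhx8, a LIM homeodomain factor, was at 444, 417 and 439 TPM in 4F and at 185 and 188 TPM in 8F, a change of -1.21 ± 0.09 (limma adjusted p = 0.0024). For both genes every 8F value was under every 4F value, and both passed in all 7 fits that left out 1 library. Tbpl2, the oocyte relative of the TATA-binding protein, was at 212, 261 and 165 TPM in 4F and at 121 and 124 TPM in 8F. Its groups did not overlap, and its difference of -0.77 missed the threshold in limma with Benjamini-Hochberg adjustment (adjusted p = 0.058) but passed without 4F replicate 3 (-0.94). Nobox, a homeobox factor, was at 1102, 1196 and 1255 TPM in 4F and at 1009 and 1052 TPM in 8F, a difference of -0.20 (95% interval from -0.45 to 0.05). Sohlh1 lost its call without 4F replicate 3 or without either 8F library, where its log2 fold change ranged from 1.13 to 1.43 over the 7 fits.

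**Figure D3:**
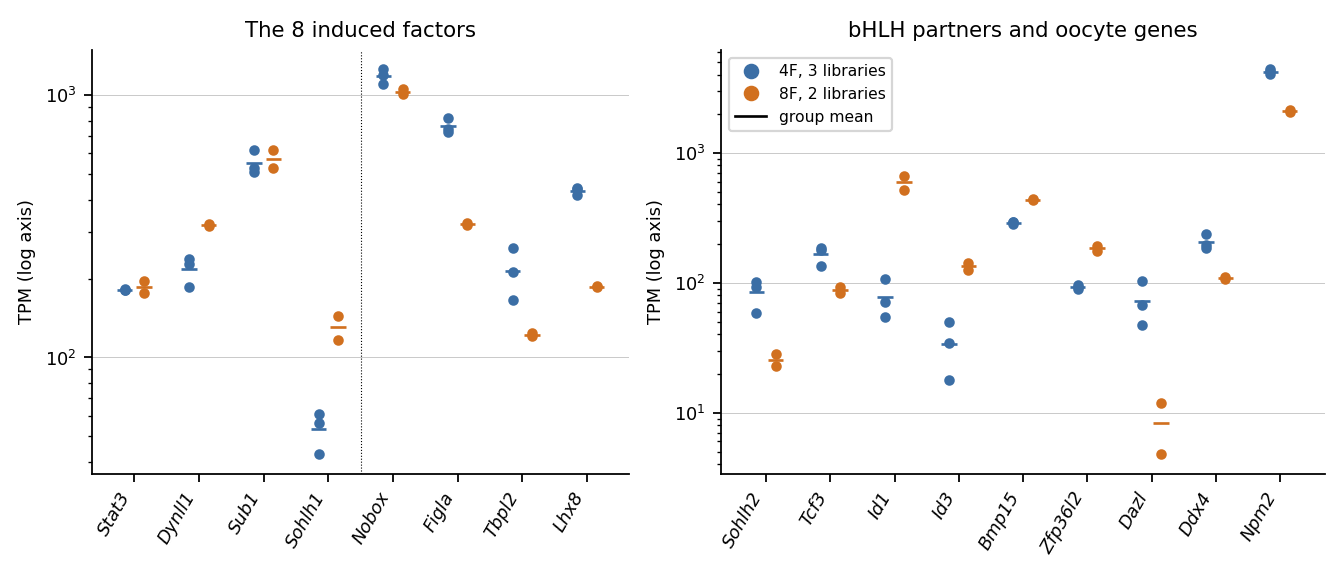
TPM on a log axis of the 8 induced factors (left, the 4 added ones before the dotted line) and of bHLH partners and oocyte genes (right) in each day 21 library. Blue points are the 3 4F libraries, orange points the 2 8F libraries and bars the group means; Figla and Lhx8 sit lower in 8F, Sohlh1, Id1 and Bmp15 higher, and Stat3 and Sub1 overlap.

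Among the 19 Sohlh1 partners and downstream genes, 3 were higher and 4 lower. The lower genes include Figla and Lhx8, described above. Both groups carried these as transgenes, so their TPM adds transgene reads to native ones. Sohlh2, which pairs with Sohlh1, was at 102, 92.6 and 58.2 TPM in 4F and at 22.8 and 28.3 TPM in 8F, a log2 fold change of -1.65 ± 0.25 (limma, Benjamini-Hochberg adjusted p = 0.0155). Tcf3, the E protein E2A, was at 134, 180 and 186 TPM in 4F and at 83.2 and 92.6 TPM in 8F (log2 fold change -0.90). Sohlh2 and Tcf3 were thus lower in every 8F library, while the other E proteins of the list, Tcf4 and Tcf12, were not called. Id1, an inhibitor of E proteins and a target of BMP signalling, went the other way, from 54.6, 70.5 and 107 TPM to 664 and 519 TPM, a log2 fold change of 2.96 ± 0.29 (limma adjusted p = 0.0051). Id3, of the same family, rose from 34.4, 17.9 and 49.8 TPM to 126 and 141 TPM (2.05), while Id2 and Id4 were not called. Bmp15, the third gene called higher, is described with the oocyte genes. Id1 failed only without 8F replicate 1 among the 7 fits. Sohlh2 failed without 4F replicate 2 or either 8F library, Tcf3 without 4F replicate 2 or 3 or either 8F library, and Id3 in 6 of the 7 fits, with the day 21 libraries alone and after the length, GC and purine adjustment (1.71, limma adjusted p = 0.073).

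E-boxes are shown in RefSeq promoters of this network, as the 250 bases before the RefSeq start on the gene's strand (GRCm38.p6), with E-boxes (CANNTG) and STAT sites (TTCNNNGAA) in capitals. Both motifs read the same on both strands. In the GENCODE annotation the Figla gene spans chr6:86016171-86020996 and the Dazl gene chr17:50279395-50293636, so the Figla window lies wholly inside its annotated gene and the Dazl window in part. The windows are chrX:6320725-6320974 (minus strand) for Bmp15, which was higher, chr6:86016941-86017190 (plus) for Figla and chr17:50293621-50293870 (minus) for Dazl, which were lower, and chr2:25847249-25847498 (minus) for Sohlh1, the added bHLH factor.
Bmp15: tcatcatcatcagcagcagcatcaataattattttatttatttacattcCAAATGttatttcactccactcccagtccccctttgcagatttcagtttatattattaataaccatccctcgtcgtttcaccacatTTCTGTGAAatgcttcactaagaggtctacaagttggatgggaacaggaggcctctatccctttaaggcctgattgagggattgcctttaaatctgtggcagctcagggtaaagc
Figla: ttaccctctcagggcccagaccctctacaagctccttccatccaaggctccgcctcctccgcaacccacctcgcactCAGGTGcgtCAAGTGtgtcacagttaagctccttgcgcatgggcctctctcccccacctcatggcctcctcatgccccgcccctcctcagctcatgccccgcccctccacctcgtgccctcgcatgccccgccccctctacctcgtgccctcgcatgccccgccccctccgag
Dazl: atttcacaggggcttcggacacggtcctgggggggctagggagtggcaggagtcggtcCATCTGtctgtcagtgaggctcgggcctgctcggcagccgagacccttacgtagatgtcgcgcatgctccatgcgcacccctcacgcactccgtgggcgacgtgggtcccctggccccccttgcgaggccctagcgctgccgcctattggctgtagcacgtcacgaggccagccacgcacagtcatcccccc
Sohlh1: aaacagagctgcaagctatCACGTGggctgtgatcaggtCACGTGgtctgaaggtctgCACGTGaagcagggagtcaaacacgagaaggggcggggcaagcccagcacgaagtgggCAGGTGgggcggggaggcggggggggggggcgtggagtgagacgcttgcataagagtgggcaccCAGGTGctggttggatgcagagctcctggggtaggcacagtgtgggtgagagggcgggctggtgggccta
The Sohlh1 window holds 5 E-boxes, 3 of them CACGTG, the Figla window 2, and the Bmp15 and Dazl windows 1 each. The Bmp15 window also holds 1 STAT site, and the other windows none. Of 27025 promoters in the RefSeq table, 66.0% hold at least 1 E-box and 7.18% a STAT site. An E-box was in 54.1% of the 257 promoters matched to genes called higher, in 56.0% of the 518 matched to genes called lower and in 56.1% of the 8077 matched to the named genes as a whole. The STAT site was in 7.00%, 4.83% and 5.61% of them. A match is a description of letters only.

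Oocyte genes moved in both directions. Of 42 genes of oocyte growth, zona and maternal effect, all of them tested, 3 were higher and 3 lower in 8F. Bmp15, an oocyte growth factor, was at 291, 285 and 292 TPM in 4F and at 440 and 432 TPM in 8F, a log2 fold change of 0.59 ± 0.13 (limma, Benjamini-Hochberg adjusted p = 0.046). Mos, the kinase that holds mature eggs in metaphase, was at 138, 91.5 and 129 TPM in 4F and at 272 and 230 TPM in 8F (1.08). Oog1 was at 34.8, 24.9 and 17.5 TPM in 4F and at 71.7 and 79.7 TPM in 8F (1.57). The groups did not overlap for these genes, but Mos and Oog1 were lost in each of the 7 leave-one-out fits and after the adjustment. Bmp15 was lost without any of the day 21 libraries and after the adjustment (0.34, limma adjusted p = 0.159).

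Npm2, a nuclear chaperone of the egg, was the lower gene of this list with the firmest call. The part of the Npm2-mCherry cassette of 8F cells in the Npm2 level was not tested. Npm2 was at 4381, 4221 and 4051 TPM in 4F and at 2119 and 2053 TPM in 8F, a log2 fold change of -1.015 ± 0.11 (limma, Benjamini-Hochberg adjusted p = 0.0068), and it passed in 5 of 7 leave-one-out fits, failing without either 8F library. Nlrp5, a subcortical maternal complex gene also called Mater, was at 5704, 6338 and 6125 TPM in 4F and at 3474 and 3294 TPM in 8F (-0.84). H1f8, the oocyte linker histone, was at 3807, 3432 and 3509 TPM in 4F and at 2429 and 2506 TPM in 8F (-0.54). Nlrp5 and H1f8 were lost without any of the day 21 libraries and after the adjustment (limma adjusted p = 0.182 and 0.14). The zona and growth factor genes Gdf9, Zp1, Zp2 and Zp3, named after their values were seen, were not called. Zp1 was at 1366, 1470 and 1408 TPM in 4F and at 1114 and 1093 TPM in 8F, and it passed, lower, after the adjustment (-0.71, limma adjusted p = 0.018), as did Padi6 (limma adjusted p = 0.0492). Gdf9 was at 4975, 3952 and 4912 TPM in 4F and at 5206 and 5621 TPM in 8F. Zp2 was at 5617, 5163 and 6218 TPM against 4301 and 4169 TPM. Zp3 overlapped, at 6011, 5690 and 6871 TPM against 6220 and 6073 TPM.

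Among germ cell RNA-binding and piRNA genes, none of 25 tested was higher and 5 were lower. Dazl, a translational regulator of germ cells, was at 67.8, 103 and 47.5 TPM in 4F and at 11.9 and 4.77 TPM in 8F, 8.72-fold lower in mean TPM. Its log2 fold change of -3.03 ± 0.44 (limma, Benjamini-Hochberg adjusted p = 0.0139) was the most negative among the named genes that met the naming rule. Ddx4, the Vasa helicase, was at 193, 186 and 237 TPM in 4F and at 107 and 111 TPM in 8F (-0.90). Tdrkh, a Tudor protein of the piRNA pathway, was at 96.4, 80.8 and 83.4 TPM in 4F and at 39.7 and 40.5 TPM in 8F (-1.09), and Tex15, also of that pathway, was at 75.8, 103 and 116 TPM against 35.9 and 47.1 TPM (-1.22). All of these genes had lower values in both 8F libraries than in any 4F library. The list had 3 to 4 lower genes without a single 4F library, none without either 8F library and 3 after the adjustment, which ended the calls of Ddx4 (adjusted p = 0.053) and Tex15 (adjusted p = 0.0908) in limma.

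Of 25 meiotic prophase genes tested, Smc1b, the meiotic cohesin subunit, was the one called. It was at 345, 319 and 324 TPM in 4F and at 127 and 132 TPM in 8F, a log2 fold change of -1.34 ± 0.11 (limma, Benjamini-Hochberg adjusted p = 0.003). It passed in all 7 leave-one-out fits and its log2 fold change was -0.61 after the adjustment, over 1.5 times smaller. Of 57 genes of mRNA storage and decay, 1 was higher and 6 lower. The higher one, Zfp36l2, an RNA-binding protein that sends AU-rich transcripts to decay and is needed for oocyte maturation, was at 95.7, 92.8 and 89.4 TPM in 4F and at 191 and 177 TPM in 8F (0.98 ± 0.11, limma, Benjamini-Hochberg adjusted p = 0.007). Ybx1, a Y-box protein that packages mRNA, was at 544, 650 and 579 TPM in 4F and at 308 and 335 TPM in 8F (-0.87). Pabpn1l, an oocyte poly(A)-binding protein, was at 540, 605 and 522 TPM against 320 and 359 TPM (-0.71). Zfp36l2 and Ybx1 failed without either 8F library. Pabpn1l failed without any of the day 21 libraries and after the adjustment (limma adjusted p = 0.0531).

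In the STAT lists few genes were called. None of 13 tested JAK-STAT3 receptors, kinases and STATs passed in limma, with 4 of them at an unadjusted p under 0.05 and 1 called by limma voom on recovered reads. Of 22 tested STAT3 targets, Birc5, the inhibitor of apoptosis survivin and a chromosomal passenger, was the one called. Birc5 was at 402, 393 and 395 TPM in 4F and at 937 and 864 TPM in 8F, a log2 fold change of 1.18 ± 0.17 (limma, Benjamini-Hochberg adjusted p = 0.0126), and it failed without either 8F library. Socs1, a feedback inhibitor of JAK kinases, was the one called of 15 STAT inhibitors, at 4.70, 6.10 and 4.76 TPM in 4F and at 15.2 and 13.3 TPM in 8F (1.31). Socs1 passed in 2 of 7 leave-one-out fits, those without a day 7 library, and had an adjusted p of 0.126 in limma after the length, GC and purine adjustment. Socs3, a direct target named after its values were seen, was at 21.2, 21.4 and 9.24 TPM against 52.3 and 50.3 TPM and missed the threshold in limma (adjusted p = 0.0798). Of 24 tested interferon response genes none was called, 1 of them at an unadjusted p under 0.05, and limma voom also called none.

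Cytoplasmic dynein and dynactin, the motor that DYNLL1 serves, had 1 higher and 4 lower genes of 31 tested, 16.1% in all. The higher one was Dynlt1b, a light chain of another family, at 15.1, 23.3 and 23.0 TPM in 4F and at 92.0 and 92.2 TPM in 8F (2.14 ± 0.32, limma, Benjamini-Hochberg adjusted p = 0.015). Dynlt1b belongs to a set of near-identical copies, so reads mapped uniquely to it are uncertain. Dynll2, the close relative of Dynll1, was at 522, 504 and 566 TPM in 4F and at 340 and 380 TPM in 8F (-0.56). Dynlrb1, a roadblock light chain, was at 462, 597 and 472 TPM against 309 and 273 TPM (-0.80), and the motor heavy chain Dync1h1 at 114, 108 and 112 TPM against 66.3 and 69.8 TPM (-0.70). Dync1li1, a light intermediate chain, was at 55.3, 65.2 and 45.7 TPM against 28.9 and 33.1 TPM (-0.81). Dynll1 itself thus had higher values and Dynll2 lower values in both 8F libraries. None of these calls held without either 8F library, and Dync1h1 (limma adjusted p = 0.266) and Dync1li1 (limma adjusted p = 0.0711) were lost after the adjustment. Of 8 tested partners of DYNLL1 none was called in limma, 2 of them at an unadjusted p under 0.05, and limma voom called 1 higher and 1 lower.

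For SUB1, the transcription machinery was counted. Of 36 general transcription factor genes none was higher and 3 were lower, 8.33% against 8.37% of all genes tested. Gtf2f1, the large subunit of TFIIF, was at 646, 621 and 603 TPM in 4F and at 292 and 307 TPM in 8F, a log2 fold change of -1.05 ± 0.10 (limma, Benjamini-Hochberg adjusted p = 0.005). Gtf2f2, the other TFIIF subunit, was at 359, 389 and 330 TPM against 251 and 196 TPM (-0.69), and Ccnh, the cyclin of TFIIH, at 78.6, 100 and 89.5 TPM against 42.5 and 45.1 TPM (-1.009). Gtf2f1 failed without 8F replicate 1 and after the adjustment (-0.42, limma adjusted p = 0.0841), where Gtf2f2 also failed (adjusted p = 0.156) and Ccnh did not. Gtf2f2 failed in all 7 leave-one-out fits, and Ccnh without 4F replicate 3 or either 8F library. Of 32 RNA polymerase II and III genes, 2 were higher and 6 lower, 25% in all. Polr3d and Polr3g, subunits of polymerase III, fell by 1.19 and by 1.14 on the log2 scale. Polr3d went from 89.6, 120 and 97.6 TPM to 45.3 and 42.6 TPM, and Polr3g from 61.7, 46.6 and 61.1 TPM to 24.9 and 24.8 TPM. Polr2k, a small subunit shared by the polymerases, rose from 95.9, 151 and 108 TPM to 240 and 223 TPM (0.99), a call lost in 6 of 7 leave-one-out fits and with the day 21 libraries alone. In the Mediator and elongation list, 2 of 42 were higher and 4 lower. Med28, a Mediator subunit, rose from 90.6, 98.1 and 91.3 TPM to 188 and 193 TPM (1.02 ± 0.11, limma, Benjamini-Hochberg adjusted p = 0.0068), while Supt16, a subunit of the histone chaperone FACT, went from 458, 399 and 410 TPM to 243 and 256 TPM (-0.76). Without either 8F library these genes were all under the call except Gtf2f1, which held without 8F replicate 2.

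**Figure D4:**
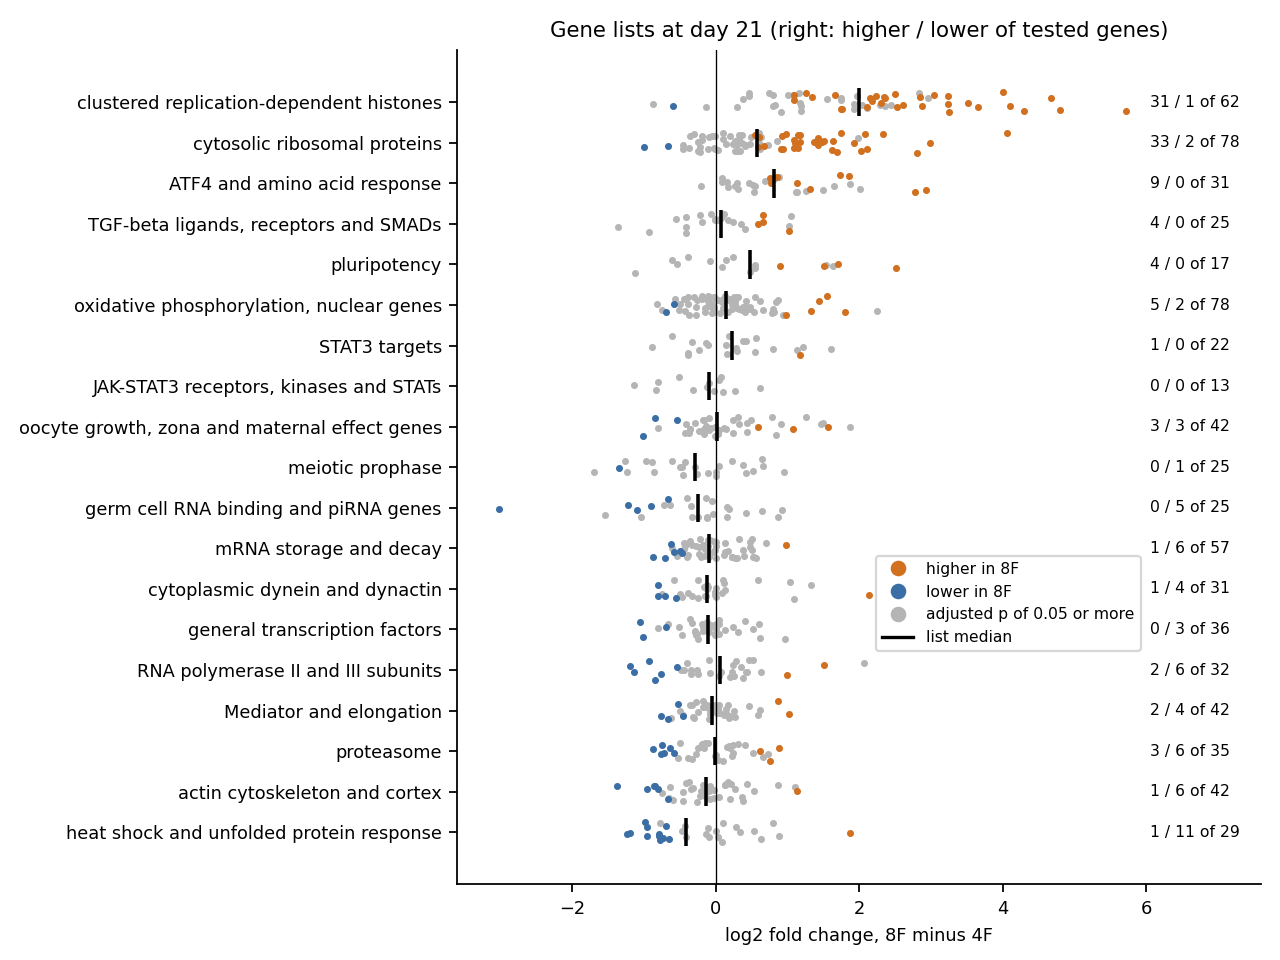
Log2 fold change (8F minus 4F, horizontal axis) of every tested gene in 19 gene lists, with orange for genes called higher, blue for genes called lower, grey for the rest and a black bar at each list's median. Counts at the right give higher / lower of tested genes; the histone, ribosomal protein and ATF4 lists lie to the right and the heat shock list to the left.

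Outside the pathways of the added factors, the amino acid response lay higher in 8F-mini-oocytes. Of 31 tested genes of the ATF4 and amino acid response, 9 were higher and none lower. A log2 fold change above 0 was found for 30 of the 31, and the list's median was 0.81. Of the 9, 7 reached 5 TPM in both groups. The others were under it in every 4F library, and 1 of them also in both 8F libraries. The summed TPM of the list was 2066 to 2229 in 4F and 3390 to 3724 in 8F. Sesn2, a leucine sensor that restrains mTORC1, was at 12.8, 3.31 and 12.5 TPM in 4F and at 70.4 and 69.0 TPM in 8F, a log2 fold change of 2.93 ± 0.52 (limma, Benjamini-Hochberg adjusted p = 0.0239). Sesn2 was lost with the day 21 libraries alone. Psat1, a serine synthesis enzyme that was under 5 TPM in every 4F library and so entered only through 8F, went from 2.96, 1.89 and 2.30 TPM to 22.6 and 21.6 TPM (2.78). Cth, which makes cysteine, rose from 13.9, 10.8 and 15.8 TPM to 56.6 and 38.3 TPM (1.73). Atf4, the transcription factor of this response, was at 479, 412 and 359 TPM in 4F and at 769 and 633 TPM in 8F (0.75). The list held 4 to 5 calls without a single 4F library and 7 after the adjustment, and its calls were lost without either 8F library. The adjustment ended the calls of Atf4 (0.59, limma adjusted p = 0.116), Shmt2 (limma adjusted p = 0.1997) and Mthfd2 (limma adjusted p = 0.053). Vldlr, not among the 9, was 1 of the 7 (limma adjusted p = 0.028).

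Chaperones went the other way. Of 29 genes of the heat shock and unfolded protein response, 1 was higher and 11 were lower, with a median log2 fold change of -0.42 and a summed TPM of 15570 to 17260 in 4F and 9826 to 9855 in 8F. Hsp90b1, the endoplasmic reticulum HSP90, was at 1155, 1087 and 1130 TPM in 4F and at 482 and 475 TPM in 8F, a log2 fold change of -1.23 ± 0.12 (limma, Benjamini-Hochberg adjusted p = 0.0049). Calr, the lectin chaperone calreticulin, was at 1459, 1559 and 1487 TPM against 662 and 650 TPM (-1.19). Hsp90ab1, the cytosolic HSP90, was at 3560, 3263 and 3030 TPM against 1649 and 1716 TPM (-0.96). All 3 were lower in both 8F libraries than in any 4F library, while 11 of the 29 genes had a log2 fold change above 0. Xbp1, a transcription factor of the unfolded protein response, was at 40.7, 36.2 and 36.3 TPM against 21.0 and 16.3 TPM (-0.99), whereas Herpud1, which works in degradation from the endoplasmic reticulum, was at 28.7, 13.8 and 30.4 TPM against 88.9 and 84.4 TPM (1.87), a call lost with the day 21 libraries alone. The list held 7 to 8 lower genes without a single 4F library, none without either 8F library and 9 after the adjustment.

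**Figure D5:**
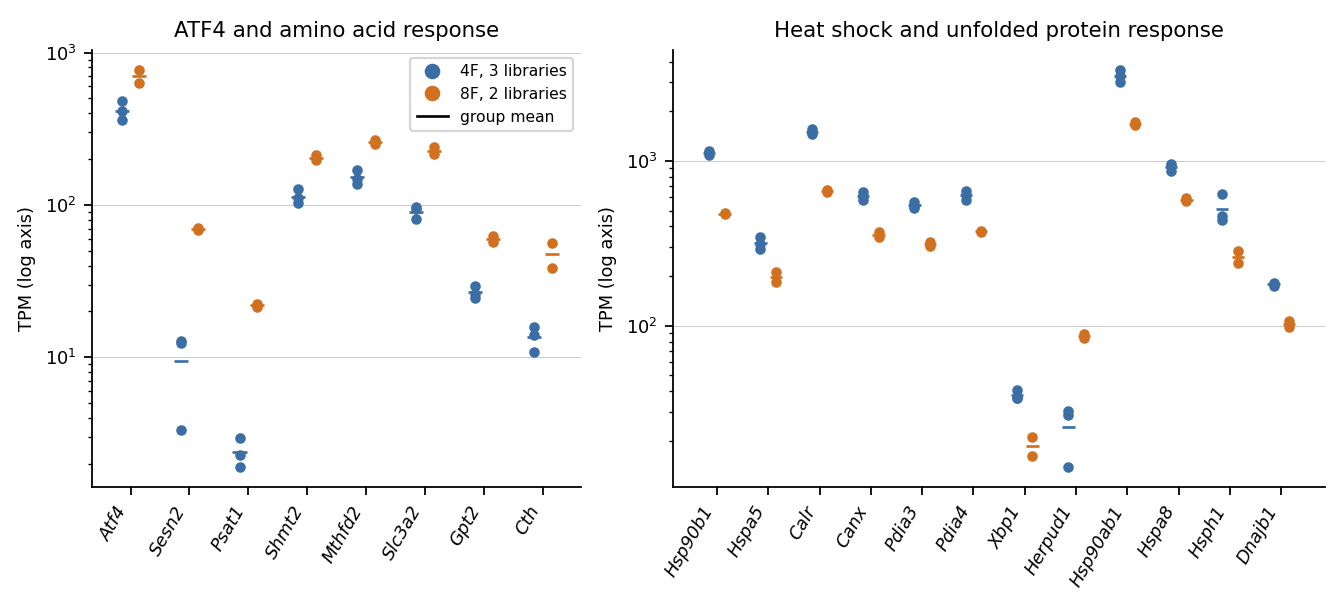
TPM on a log axis in each day 21 library for 8 of the 9 genes called in the ATF4 list (left; Slc7a3, listed at 0 in 2 of the 4F libraries, is not drawn) and the 12 called in the heat shock and unfolded protein response list (right). Blue points are the 3 4F libraries, orange points the 2 8F libraries and bars the group means; the ATF4 genes and Herpud1 sit higher in 8F and the other chaperone genes lower.

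Of the lists chosen by function, that of cytosolic ribosomal protein genes held the most calls. Of 78 genes, 33 were higher and 2 lower in 8F, with a median log2 fold change of 0.57. Rpl17 was at 41.1, 53.6 and 47.4 TPM in 4F and at 880 and 736 TPM in 8F, 17.1-fold higher in mean TPM (log2 fold change 4.07 ± 0.14; limma, Benjamini-Hochberg adjusted p = 2.8e-04). Rpl39 was at 8.41, 23.0 and 7.40 TPM against 103 and 91.8 TPM (2.99), and Rpl7a at 52.1, 65.5 and 43.2 TPM against 400.1 and 355 TPM (2.81). Rplp2, a stalk protein, was the gene with the larger decrease, from 402, 394 and 367 TPM to 202 and 184 TPM, 2.01-fold lower in mean TPM. These genes have many near-identical pseudogenes, and only uniquely mapped reads were counted. Of the 62 with a pseudogene named after them 31 were higher, and of the 16 without 2 were higher. Outside this list, 31 of 225 named genes with such a pseudogene were higher (13.8%) and 13 lower (5.78%). Of the 9683 without one, 2.59% were higher and 6.26% lower. The summed TPM of processed pseudogenes was 48460 to 51230 in 4F and 31080 to 32150 in 8F, while that of pseudogenes named after ribosomal protein genes was 3006 to 3362 in 4F and 3085 to 3261 in 8F. Rpl17 pseudogenes summed to 62.0 to 93.7 TPM in 4F and 329 to 379 TPM in 8F, and Rpl7a pseudogenes to 25.8 to 40.3 TPM and 23.6 to 23.8 TPM. How reads were shared between genes and copies was not tested. The list held 24 to 28 higher genes without a single 4F library, 5 and 8 without 8F replicate 1 and 2, and 27 after the adjustment.

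Histone genes led the genes with the largest increases. Of the 15 genes with the largest increase, 7 were under 5 TPM in every 4F library and so entered only through 8F, which fixed their direction. By the naming rule, 10 of the 15 genes with the largest increase were histone genes of the replication-dependent clusters, which make transcripts that end in a stem-loop in place of a poly(A) tail. A list of the clustered genes was therefore added after the values were seen. Of its 62 tested genes 31 were higher and 1 was lower, with 20 of the 31 reaching 5 TPM in both groups, and their summed TPM was 5764 to 6339 in 4F and 11210 to 13290 in 8F. H2ac18 was at 28.1, 21.8 and 21.5 TPM in 4F and at 896 and 522 TPM in 8F, a log2 fold change of 4.80 ± 0.24 (limma, Benjamini-Hochberg adjusted p = 7.9e-04). H4c4 was at 49.7, 20.6 and 52.3 TPM against 371 and 357 TPM (3.23), and H4c12, listed at 0 in every 4F library, reached 38.0 and 70.8 TPM in 8F. Hist1h2al was the lower one. Of 12 replication-independent histone genes 2 were higher and 4 lower, with H3f3a from 38.7, 19.5 and 52.5 TPM to 166 and 152 TPM (2.19) and H2aj from 28.2, 33.6 and 32.7 TPM to 9.01 and 9.04 TPM (-1.69). Clustered histone genes are short and nearly identical to each other, and their count was 21 higher after the adjustment and 4 and 5 higher without 8F replicate 1 and 2.

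The other genes with the largest increases were Rpl17, G0s2, Igfbp7, Defa29 and Tcstv1. G0s2, an inhibitor of triglyceride lipase, was at 0, 0.26 and 0 TPM in 4F and at 11.6 and 9.75 TPM in 8F. Igfbp7, a secreted binding protein, was at 0, 0 and 0.39 TPM against 13.8 and 7.61 TPM. Tcstv1, a gene of 2-cell embryos with close copies, was at 2.60, 0 and 3.24 TPM against 24.7 and 16.7 TPM. Defa29 was at 5.67, 12.0 and 1.64 TPM in 4F and at 59.9 and 51.4 TPM in 8F. The 4F levels of G0s2 and Igfbp7 were at or near 0. Tcstv1 was under 5 TPM in every 4F library, and G0s2, Igfbp7 and Tcstv1 entered only through 8F. Igfbp7 and Tcstv1 lost their calls in 5 and 7 of the 7 leave-one-out fits. Defa29 and Tcstv1 were also lost after the adjustment and with the day 21 libraries alone.

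The genes with the largest decreases were led by Dazl. Hip1, a clathrin adaptor, was at 8.93, 12.7 and 12.1 TPM in 4F and at 0.44 and 0.57 TPM in 8F (-3.01). Bfsp1, a beaded filament protein of the lens, was the most abundant of them, at 809, 1446 and 936 TPM against 185 and 276 TPM (-2.18 ± 0.50; limma, Benjamini-Hochberg adjusted p = 0.0464). Krt79, a keratin, was at 85.9, 92.1 and 111 TPM against 9.86 and 20.9 TPM (-2.65), and Vil1, the actin bundler villin, at 87.8, 74.8 and 152 TPM against 22.3 and 26.8 TPM (-1.99). Further genes among them were AC124742.1, Ccdc172, Bco1, Uchl4, Arid5b, Ccdc65, Wdr89, Tpm3-rs7 and Nckap5, with log2 fold changes from -2.85 to -1.88. AC124742.1 is a clone name with no gene type or span in the annotation. Hip1, Ccdc65 and Nckap5 entered only through 4F, and Ccdc172 and Nckap5 lost their calls after the adjustment. Tpm3-rs7 is a related sequence of another gene, for which unique mapping is uncertain. Bfsp1 passed in 2 of 7 leave-one-out fits, those without a day 7 library, and failed after the adjustment.

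Among cytoskeletal genes, 1 of 42 of the actin cytoskeleton and cortex was higher and 6 were lower. Actg1, cytoplasmic gamma-actin, rose from 340, 363 and 338 TPM to 725 and 804 TPM (1.14 ± 0.11; limma, Benjamini-Hochberg adjusted p = 0.0049) and passed in all 7 leave-one-out fits. Ezr, which links actin to the membrane, went from 50.6, 79.3 and 70.4 TPM to 19.8 and 30.7 TPM (-1.38), a call lost with the day 21 libraries alone, and Myh9, non-muscle myosin IIA, from 288, 247 and 252 TPM to 132 and 157 TPM (-0.86). The adjustment left 2 of the 6 lower calls, and it ended that of Myh9 (-0.18, limma adjusted p = 0.621). No lower gene of the list was called without either 8F library.

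Proteasome genes were split, with 3 of 35 higher and 6 lower. Psma4, a core subunit, went from 265, 295 and 291 TPM to 155 and 156 TPM (-0.87), and Psmb2, another, from 139, 150 and 137 TPM to 287 and 241 TPM (0.88). After the adjustment Psmb2 (0.525, limma adjusted p = 0.0546), Psma1 and Psma5, the 3 higher genes, had lost their calls. In the TGF-β list, 4 of 25 were higher and none lower. Beside Bmp15 these were Tgfb3, a ligand, from 29.0, 21.3 and 27.4 TPM to 54.4 and 52.6 TPM, Acvr1b, a type I receptor, from 49.2, 41.8 and 50.8 TPM to 71.2 and 78.5 TPM, and Smad3, a transducer, from 88.4, 80.7 and 86.8 TPM to 134 and 138 TPM (0.66 ± 0.10; limma, Benjamini-Hochberg adjusted p = 0.0155). Both lists had no call without either 8F library, and after the adjustment 2 of the TGF-β genes, Tgfb3 and Smad3, held.

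Most markers of granulosa cells and fibroblasts were low or listed at 0 in both groups. Of 18 granulosa cell genes, 8 stayed under 1 TPM in all 5 libraries, Inha and Amhr2 were at 0, and the summed level was 22.0 to 43.8 TPM in 4F and 38.95 to 39.13 TPM in 8F. Among 26 fibroblast and matrix genes 16 stayed under 1 TPM in all 5 libraries, Col1a2 and Col3a1 were at 0, and the sum of 544 to 612 TPM in 4F and 468 to 541 TPM in 8F came mostly from Lamb1. The pluripotency list summed to 1670 to 1980 TPM in 4F and 2460 to 2787 TPM in 8F, with Nanog at 0 in all 5 libraries. Its 4 higher genes of 17 tested were Klf2, Dppa2, Tcl1 and Nr0b1. Of the 4, 2 reached 5 TPM in both groups. The others were under it in every 4F library, and 1 of them also in both 8F libraries. Both 8F values lay above all 4F values for 9 of the 17 genes and below them for 4. Over all genes tested these shares were 24.1% and 19.8%. A log2 fold change above 0 was found for 12 of the 17. Pou5f1 and Klf4 were not called, and their log2 fold changes were negative after the length, GC and purine adjustment. These were -1.10 (limma adjusted p = 0.0508) and -0.82 (limma adjusted p = 0.131). The summed TPM of the list includes a large part from Tcl1, which oocytes also express. Tcl1 was at 594, 646 and 548 TPM in 4F and at 1206 and 1025 TPM in 8F (0.90). The list held at most 2 calls without any one of the day 21 libraries, and Tcl1 (0.57, limma adjusted p = 0.0682) and Klf2 (limma adjusted p = 0.0582) were lost after the adjustment. In the endoderm, mesoderm and neural list, summing to 322 to 353 TPM in 4F and 475 to 481 TPM in 8F, Gata4 and Tubb3 were higher. Both calls were lost without any one of the day 21 libraries and after the adjustment (limma adjusted p = 0.0936 and 0.378). The part of these levels in other results was not tested.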

How the data were processed

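RNA was measured by SMART-seq Stranded RNA-seq in 7 libraries, 5 of them at day 21. The authors aligned trimmed reads to mm10 with HISAT2, removed ribosomal RNA reads, counted uniquely mapped read pairs with featureCounts, sharing reads over overlapping features, on GENCODE vM25, and deposited TPM for 55364 genes. No strand setting is stated, so overlapping and antisense genes can share reads, and near-identical copies lose reads. Which libraries were read on which of the 2 sequencers named, with different read lengths, is not given in the sources used here.

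Gene types, exon lengths and spans came from a GENCODE mm10 annotation that matched 55104 of 55364 identifiers, and promoters from RefSeq (GRCm38.p6). Read totals were estimated from the steps of low TPM values, of which 81.7% to 85.8% were whole reads within a tolerance of 0.02. All 7 libraries entered a limma fit (version 3.58.1, R 4.3.3) on log2(TPM + 1) with eBayes trend, over 21780 genes at 1 TPM or more in at least 2 libraries, two-sided, with Benjamini-Hochberg adjustment over all of them and a threshold of 0.05. Tables were prepared with Python 3.11.15 and pandas 2.3.3. The fit was tested on simulated data in which every library had the spread of the day 21 4F libraries. That simulation could not test the unequal spread of the groups seen here.

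Named genes were the 8 factors, the 5 marker genes, the 15 genes of largest rise and the 15 of largest fall without overlap between groups (at least 10 TPM in the higher group and 300 exon bases), and up to 4 called genes per direction in each list. Of the genes of largest fall, 1 is not reported here. Gdf9, Zp1, Zp2, Zp3, Tcf4, Tcf12, Id2, Id4, Socs3, Atf4 and the cell type genes given as not called were named after their values were seen. So were the histone lists. The members and lists were chosen with earlier results of these data known. Alternatives were other pseudocounts, filters, scalings, weights, a replicate block, limma voom on recovered reads, leaving out each library, and, chosen after seeing the data, removal of length, GC and purine splines. TPM depends on every other transcript in a library, so values are relative.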

Additional observations from a re-analysis of the deposited data

How the results depend on the processing

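Over 136 named genes and their alternatives, 1752 of 2580 values kept direction and side of the threshold, 816 kept direction but no longer passed, 6 came to pass and 6 changed sign. The sign changes were in genes that were not called, with Nobox at 0.0117 under quantile normalization and the log2 fold change of Sub1 at -0.00476 with the replicate block and -0.00408 after the length, GC and purine adjustment. With 1 library left out, Stat3 ranged from -0.0472 (without 8F replicate 2) to 0.112 (without 8F replicate 1) and Sub1 from -0.066 (without 8F replicate 1) to 0.161 (without 8F replicate 2), with Sub1 at -0.00476 also without 4F replicate 3. Dynll1 passed with array weights and limma voom, and Tbpl2 with a 5 TPM filter, array weights, the adjustment and without 4F replicate 3. The count called, 1822 over all genes and 936 of the named genes, became 994 and 254 without the eBayes trend, 3572 and 1924 with array weights, and 1130 and 531 after the adjustment, and limma voom on recovered reads called 1567 of the named genes. The cause was not tested. With 1 library left out the counts ranged from 306 to 2221 and from 48 to 1108, lowest without 8F replicate 1, where the lone 8F library was assumed to vary like the other groups. Deviations of same-numbered libraries from their group means correlated at -0.02 and -0.04. The deviations of 2 8F libraries mirror each other by construction, so these values cannot tell whether the numbers pair the libraries. The replicate block, which drops 4F replicate 3, called 164 and 49. Of the named genes called, 33.7% were higher, against 61.8% with limma voom, 52.0% without the trend and 61.2% with the replicate block, and of all genes called 47.3% were higher, against 62.9% with limma voom and 61.1% without the trend. The median log2 fold change of all genes was 0.06, and 0.27 under limma voom.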

Other observations

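Of 78 nuclear genes of oxidative phosphorylation, 5 were higher and 2 lower in 8F-mini-oocytes (limma, Benjamini-Hochberg adjustment), 8.97% against 8.37% of all genes tested. Cox7c, a cytochrome oxidase subunit, was at 26.4, 42.3 and 29.7 TPM in 4F and at 98.3 and 94.7 TPM in 8F, whereas Cox5b, of the same complex, was at 324, 346 and 352 TPM against 225 and 197 TPM. Of 23 glycolysis genes 1 was higher, Gapdh, at 6.87, 8.41 and 7.85 TPM against 16.7 and 15.1 TPM, a gene with many pseudogenes. Of 26 genes of cholesterol synthesis and uptake, Idi1 was higher (8.80, 4.14 and 8.37 TPM against 29.6 and 23.4 TPM). Insig1, which retains the sterol sensor SCAP, was lower (512, 491 and 457 TPM against 267 and 211 TPM). The share called was 7.69% in that list. Without either 8F library none of these genes was called, Gapdh was also lost after the length, GC and purine adjustment (limma adjusted p = 0.108), and Gapdh and Idi1 with the day 21 libraries alone.

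Of 31 proliferation genes 1 was higher and 3 were lower. Ccnb1, the mitotic and meiotic cyclin B1, was at 148, 111 and 115 TPM in 4F and at 277 and 263 TPM in 8F, and Ccne1, cyclin E1, at 41.2, 37.6 and 37.5 TPM against 17.7 and 19.5 TPM. No gene of the list was called lower without any one of the day 21 libraries, and the adjustment ended the calls of the other lower genes, Top2a (limma adjusted p = 0.94) and Tpx2 (limma adjusted p = 0.223). In the Kit, PI3K and mTOR list 3 of 29 were higher and 1 lower. Eif4ebp1, a translation repressor controlled by mTORC1, was at 26.1, 31.2 and 24.8 TPM against 76.5 and 72.9 TPM, Grb2, an adaptor, at 50.8, 36.6 and 39.7 TPM against 92.8 and 104 TPM, and Sos1, its exchange factor partner, at 39.8, 36.2 and 35.04 TPM against 21.6 and 24.1 TPM. Eif4ebp1 (limma adjusted p = 0.0509) and Sos1 (limma adjusted p = 0.0765) were lost after the adjustment, and no call of this list held without either 8F library.

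Of 41 lysosome and autophagy genes 1 was higher, Gaa, the acid glucosidase. Of 26 oxidative stress genes Prdx3 was higher and Gsta4 and Sod1 were lower. Gaa, Prdx3 and Gsta4 were lost after the adjustment, Sod1 with the day 21 libraries alone, and all 4 without either 8F library. Of 19 trophoblast and epithelium genes Plac1 was higher, at 2.30, 5.78 and 2.22 TPM against 15.8 and 14.2 TPM, with the list summing to 390 to 485 TPM in 4F and 330 to 370 TPM in 8F. Plac1 was lost after the adjustment (limma adjusted p = 0.0567), with the day 21 libraries alone and in 6 of the 7 leave-one-out fits. In limma, none of 18 hypoxia genes (5 at an unadjusted p under 0.05), 35 apoptosis and p53 genes (8) and 16 immediate early genes (3) was called, while limma voom called 2, 1 and 1 of them. None of 9 granulosa genes (1) and 13 fibroblast genes (2) was called, and limma voom called 0 of both.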
